A study of Mus musculus with 10 samples.

Results

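The genes described are the 5 D and E cyclins and 5 inhibitors of the cyclin-dependent kinases (CDKs) that set the entry into the cell cycle. They are Ccnd1, Ccnd2, Ccnd3, Ccne1 and Ccne2, and Cdkn1a, Cdkn1b, Cdkn1c, Cdkn2b and Cdkn2c, whose proteins are known as p21, p27, p57, p15 and p18. Their rows were taken by gene identity, but the members were chosen with earlier results of these data known. All 10 had a row among the 40620 genes counted. RNA was sequenced from MC3T3-E1 cells, a line of mouse pre-osteoblasts from newborn skull bone, of which the study used Subclone 4, so that all libraries come from 1 clone. The 5 stages were subconfluent cells and confluent cells (day 0), both in growth medium, and confluent cells kept for 24 h, 14 d or 21 d in osteogenic medium. In that medium, with 10% serum, ascorbic acid was at 50 µg/ml and β-glycerophosphate at 10 mM. Each stage had 2 replicates, A and B, and no sample was given another treatment or carried an engineered allele. The samples are not described as separate cultures, so p-values measure only the spread between these samples, which may be technical.

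A cell that has left mitosis decides in G1 whether to copy its DNA. D cyclins join CDK4 and CDK6 and begin to phosphorylate the retinoblastoma family of pocket proteins, which hold the E2F transcription factors, and cyclin E with CDK2 completes that step. INK4 inhibitors such as p15 and p18 bind CDK4 and CDK6 alone, while the CIP/KIP inhibitors p21, p27 and p57 bind whole cyclin-CDK complexes. Pre-osteoblasts in culture divide until they meet, then lay down and mineralize matrix, and withdrawal from the cycle accompanies that change.

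Between 44736156 and 162939333 counts fell on genes per library. Levels are given as RPKM, read counts scaled to gene length and to the reads of the library, from the deposited table. Values with ± are the mean and SD of the 2 replicates of a stage (n = 2). Changes are log2 fold changes on the read counts, tested with edgeR's quasi-likelihood test in 1 fit of all 10 libraries. A gene was called at a Benjamini-Hochberg adjusted p under 0.05, at any fold, over the 20808 genes that passed the filter on low counts. Of the 10 members 9 passed it, and Cdkn2b, which had no count, did not. The 6 osteoblast markers checked all had a mean over 1 RPKM, with a sum of 4888 to 15849 RPKM per library, and the 5 endothelial markers summed to at most 0.107 RPKM and the 5 skeletal muscle markers to at most 0.217 RPKM in any library. The 5 adipocyte markers summed to 2.82 to 6.74 RPKM, and only 1 of them, Cebpa, had a mean over 1 RPKM. Of 5 cartilage markers Col2a1 and Sox9 were expressed and the sum ran from 45.7 to 241 RPKM. Of 5 blood and myeloid markers 3 had a mean over 1 RPKM, with a sum of 8.17 to 267 RPKM per library. Itgam was at 5.00 to 9.86 RPKM and Csf1r at 1.83 to 3.19 RPKM in every library and Ptprc at 0 in all of them, while Tyrobp stood between 179 and 256 RPKM in 1 library each of the confluent, 14 d and 21 d stages and at or under 0.842 RPKM in the others. Subconfluent, confluent and 24 h libraries share a pair of index sequences and 14 d and 21 d libraries another. Early and late stages form separate sets by index, and a change across that line cannot be told apart from a difference between the sets. Lane numbers in the headers do not follow these sets, and some libraries with the same index also carry the same lane number. The headers do not say which libraries were prepared or run together, so libraries that share an index pair need not share a batch. At 24 h the replicates stood apart: the log2 ratio of A to B had an SD of 0.685 over 16133 genes, against 0.287 to 0.325 at the other stages. Its median there was 0.35 for genes under 1 kb and -0.32 for genes of 4 kb and over.

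The cyclins and inhibitors spanned levels from no read at all to over 200 RPKM. In subconfluent cells Ccnd1 was the most abundant member at 126 ± 0.120 RPKM, followed by Ccnd2, Cdkn1a, Cdkn2c, Cdkn1b, Ccne1, Ccne2 and Ccnd3. The replicates of Ccnd2 and Cdkn1a overlapped there and those of the other neighbours in this order did not. From confluence on, Cdkn1a was the most abundant member at every stage and reached 229 ± 5.42 RPKM at 21 d. At 21 d Ccne1, sixth in subconfluent cells, was the eighth member at 0.805 ± 0.209 RPKM. The rank of Ccnd1 rests on the length used for it in the RPKM table, 990 bases, where the exons annotated in GENCODE cover 4709 bases. For the other members these lengths differed by at most 1.65 times. Cdkn1c had at most 18 counts in any library.

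**Figure D1:**
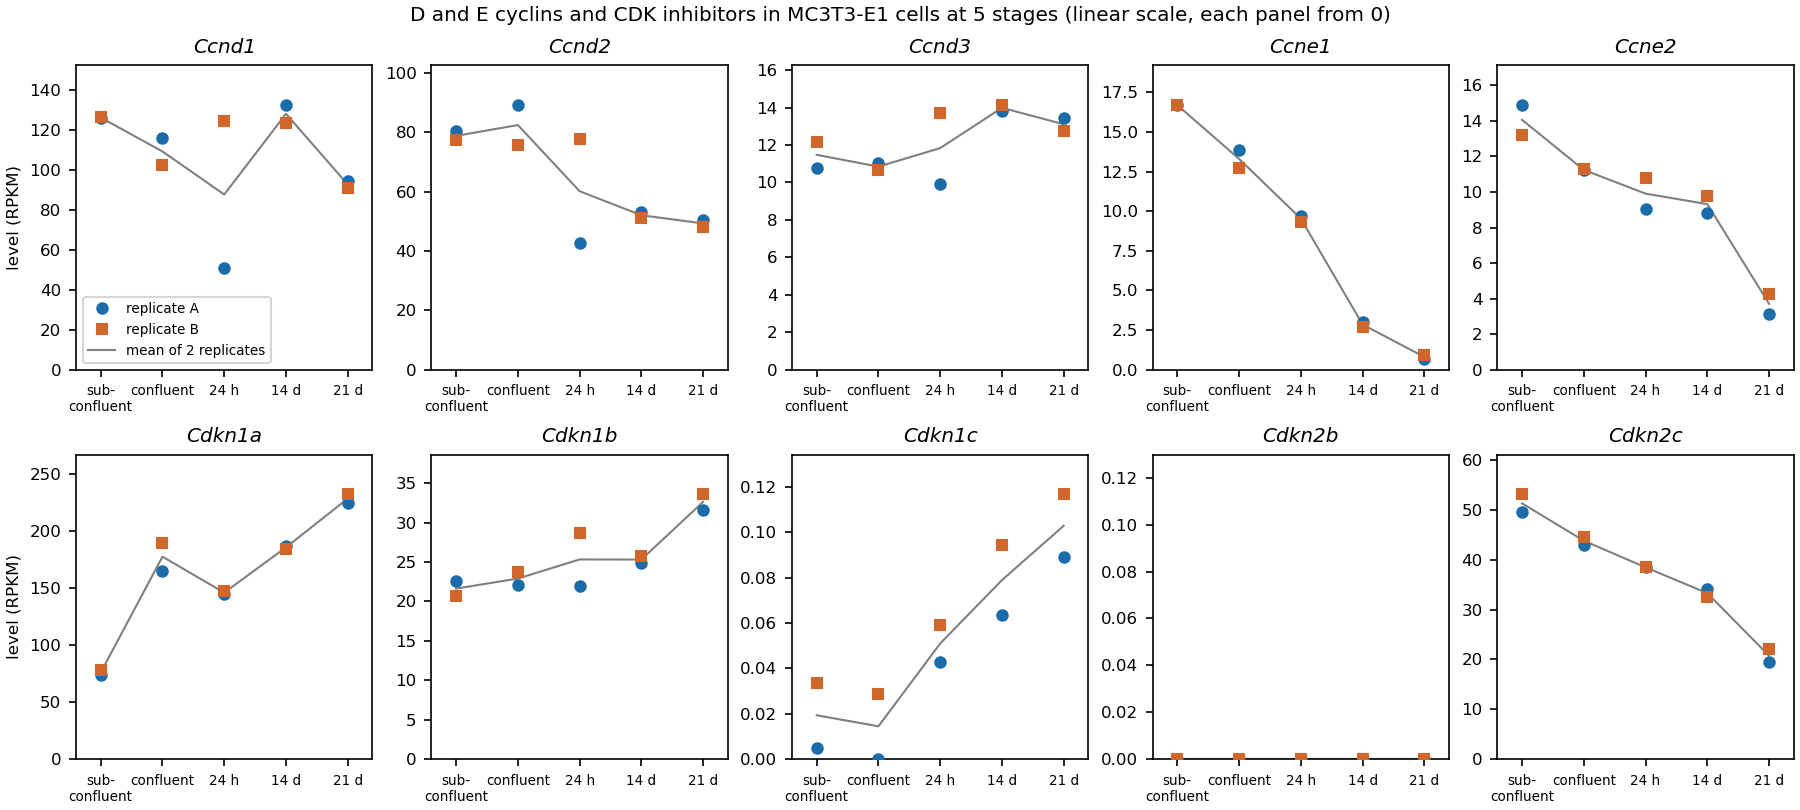
RPKM of the 10 members (vertical axes, linear and from 0) at the 5 stages (horizontal axes), with a circle for replicate A, a square for replicate B and a line through the stage means. Ccne1 fell from 16.7 to 0.805 RPKM and Cdkn1a rose from 76.0 to 229 RPKM between subconfluent cells and 21 d, while the 24 h replicates of Ccnd1 stood at 51.1 and 124 RPKM.

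Over the whole course, 21 d against subconfluent cells, 6 of the 9 members tested were called, 3 higher and 3 lower. Of all genes tested 50.7% were called, 27.3% higher and 23.5% lower. Ccne1, Ccne2 and Cdkn2c fell, and Cdkn1a and Cdkn1b rose. Cdkn1c was also called higher, but it had at most 18 counts in any library. Its call was made in only 9 of 19 alternative analyses, so a rise of Cdkn1c is not established. Its mean level was highest at 21 d, and its passing of the filter on low counts may rest on that stage. The median log2 fold change of the members was -0.33 and that of all genes tested 0.04. Tested over all 5 stages at once with an F test, 6 members were called as well, against 48.9% of all genes, here with Ccnd3 in the place of Cdkn1c. These shares of members lie near the background.

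Step by step, the calls were few. In confluent against subconfluent cells 1 of 9 members was called, Cdkn1a, against 3.28% of all genes. In 24 h against confluent cells edgeR called 0 of 9 members, against 5.15% of all genes. Ccne1 alone had an unadjusted p under 0.05 there, and DESeq2 and limma each called 0. At 14 d against 24 h 2 members were called, Ccne1 lower and Cdkn1a higher, against 17.3% of all genes. At 21 d against 14 d 3 were called, Ccne1, Ccne2 and Cdkn2c, all lower, against 9.72% of all genes in either direction and 5.95% lower. At 14 d against confluent cells 3 were called, Ccne1 lower and Ccnd3 and Cdkn1b higher, against 32.1% of all genes.

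These counts depended on the 24 h libraries. Without 24 h replicate A the comparison of 24 h with confluent cells called 2 members (Ccnd3 and Cdkn1b, both higher) against 10.1% of all genes, and without replicate B it also called 2 (Ccnd1 and Ccnd2, both lower) against 39.9%. At 14 d against 24 h the count was 3 without replicate A, where 22.8% of all genes were called, and 5 without replicate B, where 46.6% were. With no 24 h library in the fit, 5 members were called at 21 d against 14 d and 26.6% of all genes, 6 at 14 d against confluent cells and 52.7%, and 9 at 21 d against subconfluent cells and 66.1%. The counts at 14 d against confluent cells fell to 1, Ccne1, when either confluent or either 14 d replicate was left out, and at 14 d against 24 h they fell to 1, Ccne1, when either subconfluent or either 14 d replicate was.

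**Figure D2:**
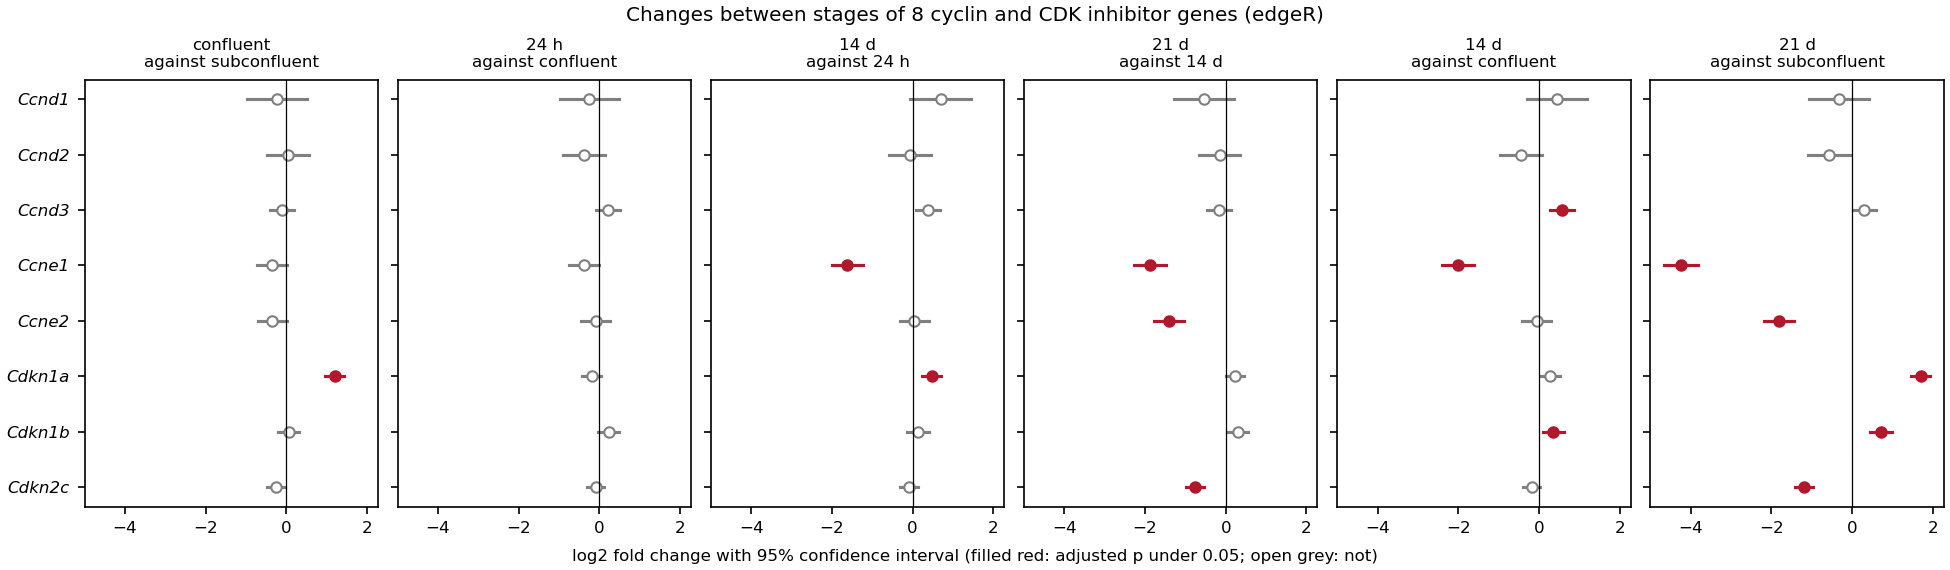
Log2 fold change (horizontal axes) with its 95% confidence interval (bars) of 8 members in 6 comparisons, from edgeR, with filled red points for an adjusted p under 0.05. Ccne1 moved furthest, by -4.24 at 21 d against subconfluent cells, and the intervals of Ccnd1 are the widest. Cdkn1c (few counts) and Cdkn2b (none) are not drawn.

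The D cyclins, which carry growth factor signals to CDK4 and CDK6, changed little beside the E cyclins. Ccnd1 stood at 126 and 126 RPKM in the subconfluent libraries, 116 and 102 in confluent ones, 51.1 and 124 at 24 h, 133 and 124 at 14 d and 94.8 and 90.8 at 21 d. The 24 h A library was the lowest of the 10 and 24 h B was level with subconfluent cells. At 21 d both libraries lay below both subconfluent ones, by a log2 fold change of -0.33 (standard error 0.32, 95% interval -1.07 to 0.41, adjusted p = 0.43). In 21 d against 14 d it was -0.54 (standard error 0.32, adjusted p = 0.38). Neither was called with the 24 h libraries in the fit. With no 24 h library the same 2 changes were -0.34 (adjusted p = 0.0049) and -0.54 (adjusted p = 0.0025), and the change at 14 d against confluent cells was 0.43 (adjusted p = 0.0026) in place of 0.45 (adjusted p = 0.33).

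Ccnd1 lies on chromosome 7 of GRCm38 from 144929931 to 144939925, minus strand. Its last exon, of 2841 bases, is partly covered on the plus strand by LTO1, a gene needed for ribosome assembly that shares 1100 exon bases with it in GENCODE. In the count table LTO1 has a length of 6204 bases and 2.11 to 2.89 counts for each count of Ccnd1 in 9 libraries, but 6.34 in 24 h A. Whether the counting used strand is not given in the sources used here, so reads on the shared bases cannot be assigned. The sum of both genes was 257 and 271 CPM (counts scaled to library size with TMM factors) in 24 h A and B, where Ccnd1 alone was at 35.1 and 79.6. With the counts of LTO1 added, an alternative chosen after the values were seen, the change in 24 h against confluent cells was 0.29 (adjusted p = 0.12) in place of -0.25 (adjusted p = 0.67). The sum was called at 14 d against 24 h (0.35, adjusted p = 0.034), at 14 d against confluent cells (0.64, adjusted p = 0.0018) and at 21 d against 14 d (-0.46, adjusted p = 0.017), where Ccnd1 alone was not. LTO1 is the larger part of the sum. The sum was 225 and 208 CPM in confluent cells and 340 and 334 at 14 d. Ccnd1 alone was at 72.2 and 63.9 and at 94.6 and 90.7. These calls therefore belong to the sum and are not calls of Ccnd1. The difference between the 24 h replicates of Ccnd1 was thus absent from the sum, and its cause was not tested.

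Ccnd2, the other abundant D cyclin, stood at 80.4 and 77.3 RPKM in subconfluent libraries, 89.3 and 75.7 in confluent ones, 42.7 and 77.6 at 24 h, 53.1 and 51.1 at 14 d and 50.5 and 48.2 at 21 d. All 4 libraries of 14 d and 21 d lay below all 4 of subconfluent and confluent cells, and again 24 h A stood apart from 24 h B. The change at 21 d against subconfluent cells was -0.56 (standard error 0.22, 95% interval -1.08 to -0.04, adjusted p = 0.070), which missed the threshold. With no 24 h library it was -0.57 (adjusted p = 0.00078), and DESeq2 gave -0.59 (adjusted p = 0.022). Within a set of libraries that share an index pair no change of Ccnd2 was called in the fit of all 10 libraries, and without 24 h replicate B that at 24 h against confluent cells was (-0.79, adjusted p = 0.0016). Exons of Ccnd2 share 368 bases with 9330179D12Rik on the other strand, which had a mean count of 628 where Ccnd2 had 24911.

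Ccnd3, a D cyclin best known from lymphoid and muscle cells, was the least abundant of the family at 9.94 to 14.1 RPKM. It stood at 10.8 and 12.2 RPKM in subconfluent libraries, 11.0 and 10.7 in confluent ones, 9.94 and 13.7 at 24 h, 13.8 and 14.1 at 14 d and 13.4 and 12.8 at 21 d. From confluent cells to 14 d it rose by 0.58 (standard error 0.13, adjusted p = 0.012). That call was lost without either confluent replicate (adjusted p = 0.059 and 0.070) or either 14 d replicate (adjusted p = 0.052 and 0.075), and with library size alone as the scaling (0.35, adjusted p = 0.17). At 21 d against subconfluent cells the change was 0.31 (standard error 0.13, adjusted p = 0.079). Ccnd3 shares 361 exon bases with Bysl on the opposite strand, and its processed pseudogene Ccnd3-ps may take some of its reads.

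Per length, the make-up of the D cyclins moved slightly. Ccnd1 held 58.3 ± 0.347% of their summed RPKM in subconfluent cells, 66.0 ± 0.692% at 14 d and 59.8 ± 0.0814% at 21 d. The share of Ccnd3 was 5.30 ± 0.476% in subconfluent cells and 8.45 ± 0.0403% at 21 d. On counts, which are not divided by length, Ccnd2 led instead, with 70.6% of the summed counts in subconfluent cells against 19.7% for Ccnd1. Counts grow with the bases counted, and the lengths used were 990 bases for Ccnd1 and 5696 for Ccnd2. The order of the 2 genes therefore depends on the length given to Ccnd1 and on the bases counted for it. Division by that length does not alter the changes of each gene between stages.

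The E cyclins, which drive CDK2 at the G1 to S boundary and are made from E2F-controlled genes, fell furthest of all members. Ccne1 stood at 16.7 and 16.7 RPKM in subconfluent libraries, 13.9 and 12.7 in confluent ones, 9.73 and 9.35 at 24 h, 3.02 and 2.69 at 14 d and 0.66 and 0.95 at 21 d. Both libraries of each stage lay below both of the stage before, and the replicates differed by less than the steps between stages. In 21 d against subconfluent cells Ccne1 fell by 4.24 on the log2 scale (standard error 0.18, adjusted p = 5.5e-06), 18.9-fold lower at 21 d. It fell by 1.62 at 14 d against 24 h (standard error 0.16, adjusted p = 0.0012) and by 1.88 at 21 d against 14 d (standard error 0.17, adjusted p = 0.00088), and the libraries of that last step share an index pair. Among the early stages, which share the other pair, the change on reaching confluence was -0.35 (adjusted p = 0.31) and that of the first day in osteogenic medium was -0.39 (adjusted p = 0.20). The calls at 14 d against 24 h, 21 d against 14 d and 21 d against subconfluent cells were made under every alternative that gave an adjusted p. In bulk RNA, fewer cells that express a gene and less of its RNA in each cell cannot be told apart.

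Ccne1 lies on chromosome 7 from 38097984 to 38107534, minus strand. The stretch before its GENCODE start is shown because this member moved most. It comes from RefSeq on GRCm38.p6, minus strand, chr7:38107535-38107740, with capitals for GC boxes, the letters GGGCGG on either strand.

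Ccne1: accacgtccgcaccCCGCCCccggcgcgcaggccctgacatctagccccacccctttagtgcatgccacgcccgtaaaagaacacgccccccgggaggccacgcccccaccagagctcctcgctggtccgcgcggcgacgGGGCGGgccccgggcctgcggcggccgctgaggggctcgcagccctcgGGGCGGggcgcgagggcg

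RefSeq's start of Ccne1 lies downstream of that in GENCODE. The window of 250 bases before to 50 after RefSeq's start, chr7:38107441-38107740, holds 4 GC boxes. They begin at bases -236, -110, -62 and -49 from RefSeq's start, and the first 3 are shown in capitals. A GC box lies in 35.7% of the 32851 RefSeq mouse promoters of the same length. The E2F letters TTTCCCGC, TTTCGCGC, TTTGCCGC and TTTGGCGC were searched on both strands and lie in 2.26% of all promoters, and in none of the 9 windows of the 6 members that RefSeq's table held (Ccnd3, Ccne1, Cdkn1a, Cdkn1b, Cdkn2b and Cdkn2c). A match is a description of letters and not a bound site.

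Ccne2, which has the same partner kinase, kept its level longer. It stood at 14.9 and 13.2 RPKM in subconfluent libraries, 11.2 and 11.3 in confluent ones, 9.02 and 10.8 at 24 h, 8.85 and 9.79 at 14 d and 3.14 and 4.27 at 21 d. The libraries of 24 h and 14 d overlapped, and both 21 d libraries lay below all others. It fell by 1.40 at 21 d against 14 d (standard error 0.16, adjusted p = 0.0020), where the index pair is the same, and it fell by 1.80 at 21 d against subconfluent cells (standard error 0.16, adjusted p = 9.2e-05), 3.49-fold lower. At 14 d against 24 h its change was 0.04 (95% interval -0.32 to 0.40, adjusted p = 0.89), where that of Ccne1 was -1.62 (standard error 0.16). Exons of Ccne2 share 609 bases with Ints8 on the opposite strand, with a mean count of 4132 against 2117 for Ccne2.

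With Ccne1 falling earlier, the make-up of cyclin E turned over. Ccne1 held 54.3 ± 2.11% of the summed E cyclin RPKM before confluence, 54.2 ± 1.55% at confluence and 49.1 ± 3.89% at 24 h. It held 23.5 ± 2.78% at 14 d and 17.8 ± 0.658% at 21 d. The ratio of Ccne2 to Ccne1 went from 0.842 ± 0.0714 in subconfluent cells to 4.64 ± 0.209 at 21 d. The shift between 24 h and 14 d falls between the sets of libraries, whereas the further shift from 14 d to 21 d is within one. These shares were not tested.

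Genes of dividing cells fell along with the E cyclins. The summed RPKM of 5 proliferating cell markers (Mki67, Top2a, Ccnb1, Aurka and Bub1) was 194 to 201 in subconfluent libraries, 147 to 160 in confluent ones (lowest and highest), 87.1 to 108 at 24 h, 72.1 to 76.9 at 14 d and 18.1 to 26.0 at 21 d. All 5 were called lower at 21 d against subconfluent cells, where 23.5% of all genes were, and at 21 d against 14 d, where 5.95% were. Their part in the fall of Ccne1, Ccne2 and Cdkn2c was not tested.

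**Figure D3:**
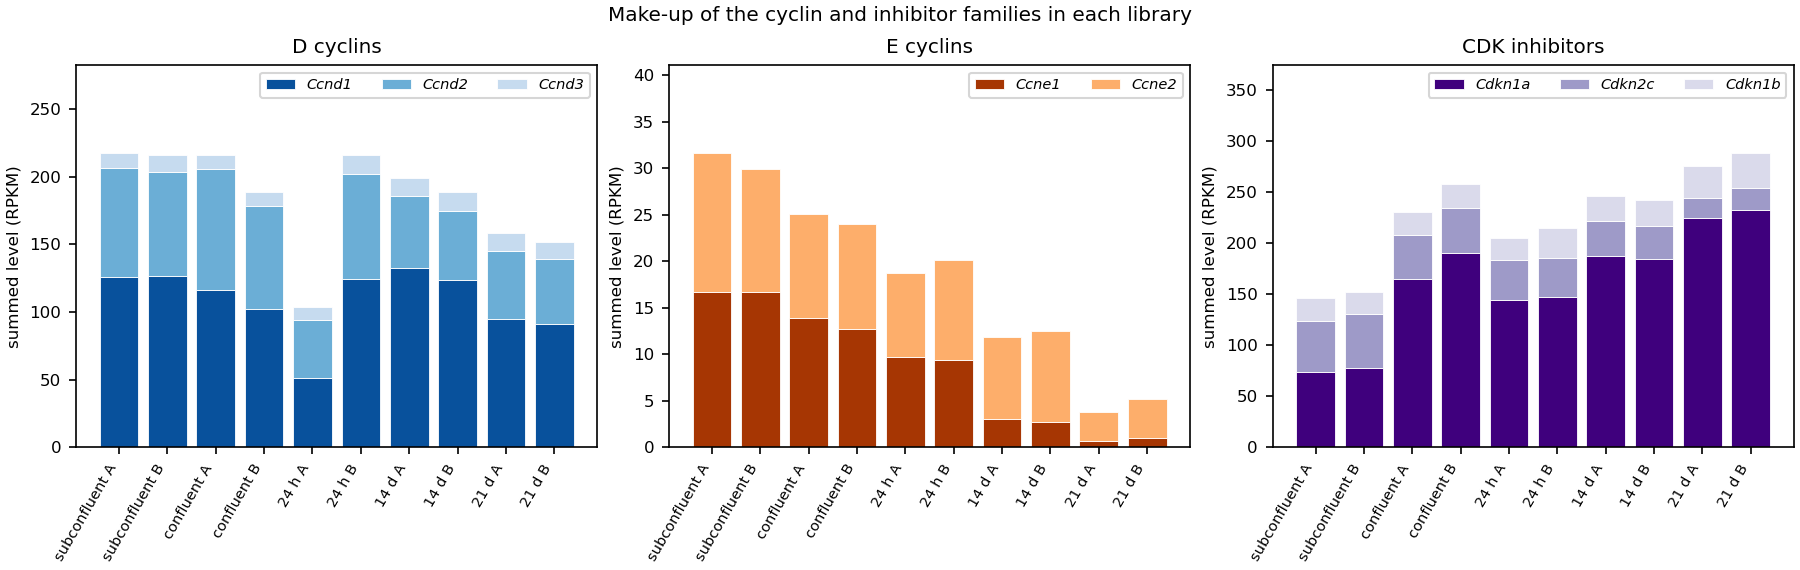
Summed RPKM (vertical axes) of the D cyclins, the E cyclins and the 3 abundant inhibitors in each of the 10 libraries (horizontal axes), with 1 colour per gene. The E cyclin bars shrink from 30.8 RPKM in subconfluent cells to 4.51 RPKM at 21 d (means of 2 libraries) while Ccne1 loses its share, and the inhibitor bars grow from 149 to 282 RPKM with Cdkn1a as the larger part.

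Of the CIP/KIP inhibitors, Cdkn1a, whose product p21 is induced by p53 and by other arrest signals, rose in the growth medium when cells reached confluence. It stood at 74.1 and 77.8 RPKM in subconfluent libraries, 165 and 190.0 in confluent ones, 145 and 147 at 24 h, 187 and 184 at 14 d and 225 and 232 at 21 d. Both subconfluent libraries lay below all others and both 21 d libraries above all others. In confluent against subconfluent cells, whose libraries share an index pair, it rose by 1.20 on the log2 scale (standard error 0.10, adjusted p = 0.0018), 2.30-fold. This call was made under each of the 21 alternatives that gave an adjusted p. At 24 h the change against confluent cells was -0.19 (95% interval -0.42 to 0.04, adjusted p = 0.28), and at 14 d against 24 h it rose by 0.47 (standard error 0.10, adjusted p = 0.018). The last call was lost without either subconfluent replicate (adjusted p = 0.075 for each) or either 14 d replicate (adjusted p = 0.10 and 0.12). In 21 d against subconfluent cells Cdkn1a rose by 1.71 (standard error 0.10, adjusted p = 1.7e-05), 3.26-fold.

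Cdkn1b, which encodes p27, the inhibitor that accumulates in resting cells largely through slower breakdown of the protein, rose late and by less. It stood at 22.6 and 20.7 RPKM in subconfluent libraries, 22.1 and 23.7 in confluent ones, 21.9 and 28.7 at 24 h, 24.9 and 25.7 at 14 d and 31.7 and 33.6 at 21 d. The subconfluent and confluent libraries overlapped and both 21 d libraries lay above all others. It rose by 0.71 at 21 d against subconfluent cells (standard error 0.12, adjusted p = 0.0017), 1.64-fold, and was called there under each of the 21 alternatives that gave an adjusted p, though it lies under a 2-fold threshold. From confluent cells to 14 d it rose by 0.36 (standard error 0.11, adjusted p = 0.048), a call that held in 7 of 21 alternatives and was lost, for example, without either confluent replicate (adjusted p = 0.22 and 0.11), without either 14 d replicate (adjusted p = 0.12 and 0.21) and with library size alone as the scaling (0.13, adjusted p = 0.57). Within an index pair no change of Cdkn1b was called in the fit of all 10 libraries. With no 24 h library its change at 21 d against 14 d was 0.30 (adjusted p = 0.022).

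Cdkn1a lies on chromosome 17 from 29090976 to 29100727 and Cdkn1b on chromosome 6 from 134920401 to 134925513, both on the plus strand. The 250 bases before the start of each are shown since these are the abundant inhibitors that rose, from RefSeq on GRCm38.p6, plus strand, with capitals for GC boxes as above. For Cdkn1a they are chr17:29093519-29093768, the nearer to the coding part of 2 starts in the table, and for Cdkn1b chr6:134920151-134920400.

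Cdkn1a: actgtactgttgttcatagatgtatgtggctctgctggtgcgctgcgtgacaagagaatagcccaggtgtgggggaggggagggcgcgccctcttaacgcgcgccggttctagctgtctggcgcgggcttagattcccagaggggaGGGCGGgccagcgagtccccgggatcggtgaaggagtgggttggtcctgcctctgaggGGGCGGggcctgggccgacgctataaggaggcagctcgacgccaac

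Cdkn1b: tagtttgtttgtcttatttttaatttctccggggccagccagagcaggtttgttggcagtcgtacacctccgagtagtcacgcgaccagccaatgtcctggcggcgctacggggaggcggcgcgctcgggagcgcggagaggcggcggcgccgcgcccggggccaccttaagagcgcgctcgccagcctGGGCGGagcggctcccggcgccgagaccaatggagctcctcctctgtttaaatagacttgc

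The Cdkn1a stretch holds 2 GC boxes and that of Cdkn1b 1, where the window of Ccne1, which fell, has 4. No AP-1 (TGANTCA), CRE (TGACGTCA), RUNX (TGTGGTT) or E-box (CACGTG) letters lie in the windows of these 3 genes. These letters lie in 7.81%, 1.79%, 5.27% and 7.15% of all promoters.

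Cdkn1c, an imprinted gene for p57 with roles in the growth of embryonic bone and cartilage, was close to absent. It had 1 and 2 counts in the subconfluent libraries, 0 and 6 in confluent ones, 7 and 9 at 24 h, 11 and 6 at 14 d and 6 and 18 at 21 d. No library exceeded 0.117 RPKM. Over both libraries of a stage there were 24 counts at 21 d and 3 in subconfluent cells, a ratio of 9.05 per total count (95% exact interval for counting error only, 2.75 to 47.0). edgeR gave a rise of 2.95 (standard error 1.03, adjusted p = 0.046), which was called in 9 of 19 alternatives. Cdkn1c passed the filter on low counts through the 21 d libraries, so this p-value is not independent of the filter. The call was lost without subconfluent replicate A (1.70, adjusted p = 0.30) and without any 1 of the 24 h, 14 d and 21 d libraries (adjusted p = 0.052 to 0.17). At these depths, levels so low hold no more than a few reads, and PCR copies without molecular identifiers are not independent, so intervals and floors here cover counting error only.

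Of the INK4 inhibitors, Cdkn2c was abundant and moved with the E cyclins. Its product p18 is an inhibitor of CDK4 and CDK6, and its gene is known as an E2F target. It stood at 49.5 and 53.2 RPKM in subconfluent libraries, 43.0 and 44.6 in confluent ones, 38.5 and 38.5 at 24 h, 34.1 and 32.5 at 14 d and 19.4 and 22.1 at 21 d. Both libraries of each stage lay below both of the stage before. It fell by 0.76 at 21 d against 14 d (standard error 0.09, adjusted p = 0.0029), where the libraries share an index pair, and it fell by 1.19 at 21 d against subconfluent cells (standard error 0.09, adjusted p = 5.6e-05), 2.28-fold lower. These calls held under every alternative that gave an adjusted p, while the change at 21 d against 14 d lies under a 2-fold threshold. The opposite directions of Cdkn2c and Cdkn1a at 21 d against subconfluent cells, both called, leave the inhibitors without a common direction.

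Cdkn2c lies on chromosome 4 from 109660876 to 109667189, minus strand, and has 2 windows in RefSeq's promoter table. The window at chr4:109666707-109667006 holds the letters TTCCCGC at base -25 from the start. The 4 E2F words named above, taken without their first T and so overlapping with the longer search, lie in 9.57% of all promoters and in no other window of the members. It also holds 4 GC boxes.

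Cdkn2b, which encodes p15, a target of TGF-beta signals in many cells, had 0 counts in each of the 10 libraries, of 1015103989 counts on genes in all. A count of 0 allows up to 3 counts, which is 0.00296 CPM over all libraries and at most 0.0696 RPKM in any 1 library. Its neighbour Cdkn2a, the gene of the INK4 inhibitor p16 and of p19Arf, was also at 0 in all 10. Both lie in a run of 10 annotated genes with no count in any library, on chromosome 4 from 89137122 to 89463487 of GRCm38, a span of 326 kb. Of these 10 genes 3 are protein-coding, Mtap, Cdkn2a and Cdkn2b. Mtap, the methionine salvage enzyme, is made in most cells. On one side the run ends at Gm12602, with 72 to 709 counts in each library, and on the other at Dmrta1, with 0 to 3. These neighbours were chosen after their values were seen. Whether the DNA of this stretch is present in the cells was not tested, and RNA counts do not show it.

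**Figure D4:**
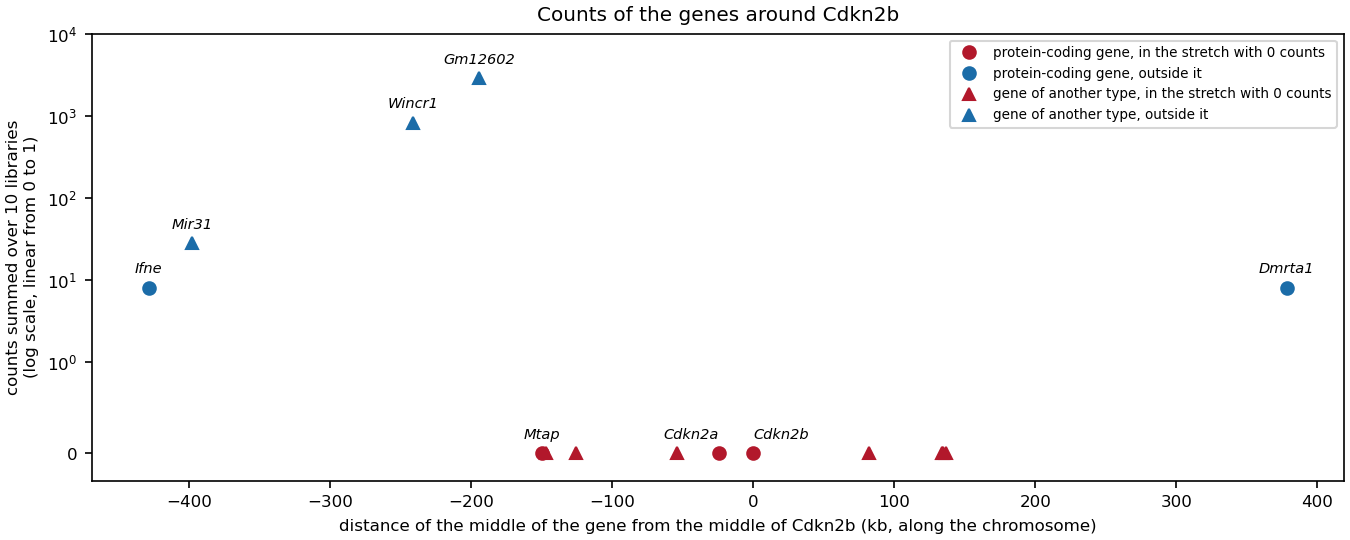
Counts summed over the 10 libraries (vertical axis, log scale, linear between 0 and 1) of annotated genes against their distance from Cdkn2b in kb (horizontal axis), with circles for protein-coding genes, triangles for other genes and red for the run without counts. The 10 genes from Mtap on the left to beyond Cdkn2b on the right are all at 0, while Gm12602 beside them has 2870 counts.

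The summed RPKM of the 5 inhibitors was 149 ± 3.88 before confluence, 244 ± 19.9 at confluence, 210 ± 6.76 at 24 h, 244 ± 2.66 at 14 d and 282 ± 8.71 at 21 d. In RPKM it was thus higher at 21 d than at the start, but lower at 24 h than at confluence and level between confluence and 14 d. RPKM carries no TMM scaling. In TMM-scaled CPM, from confluence to 14 d, Cdkn1a went from 248 to 301, Cdkn1b from 65.5 to 84.1 and Cdkn2c from 73.9 to 65.3. The log2 fold change of Cdkn1a there was 0.28 in edgeR (adjusted p = 0.066). The sum of the E cyclins was 30.8 ± 1.17 before confluence, 24.5 ± 0.744 at confluence, 19.4 ± 0.994 at 24 h, 12.2 ± 0.432 at 14 d and 4.51 ± 1.01 at 21 d, and so went down with every step. Cdkn1a held 51.0 ± 0.424% of the inhibitor sum in subconfluent cells and 81.0 ± 0.580% at 21 d, while Cdkn2c went from 34.5 ± 0.845% to 7.35 ± 0.445%. The ratio of Cdkn1a to Ccne1 moved from 4.55 ± 0.154 in subconfluent cells to 13.4 ± 2.11 in confluent cells, 65.3 ± 4.70 at 14 d and 293 ± 69.2 at 21 d. The ratio of all inhibitors to all cyclins was 0.602 ± 0.0212 in subconfluent cells and 1.77 ± 0.0978 at 21 d. It was 1.67 and 0.909 in 24 h A and B, since it holds Ccnd1 and Ccnd2. These sums compare RNA and not protein, and were not tested.

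The partners of these genes in the pathway were described by lists. The first list held 7 genes, for the G1 kinases, the mitotic kinase Cdk1 and the complex that activates CDKs. Of the 7, 0 were called higher and 4 lower at 21 d against subconfluent cells, where 23.5% of all genes were lower. These were Cdk1 (-3.02), Cdk2 (-1.91), Cdk4 (-0.51) and Cdk7 (-0.41), all as log2 fold changes. Cdk2, the partner of cyclin E, also fell within an index pair, by 0.96 at 21 d against 14 d (adjusted p = 0.00069). Cdk6, the other partner of the D cyclins, changed by 0.19 (standard error 0.46, adjusted p = 0.76).

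Of 13 pocket protein and E2F genes, 2 were called higher and 8 lower at 21 d against subconfluent cells, against 27.3% and 23.5% of all genes, with a median log2 fold change of -1.21. The activator E2f1 fell by 2.05 (standard error 0.12, adjusted p = 1.7e-05), and the pocket protein gene Rbl1, most used in cycling cells, fell by 2.22 (standard error 0.23, adjusted p = 0.00020). Rbl2, whose pocket protein p130 is typical of resting cells, rose by 0.97 (standard error 0.13, adjusted p = 0.00059), and E2f6 rose by 0.47. Rb1 changed by 0.31 (standard error 0.17, adjusted p = 0.17). Of 10 E2F target genes of S phase entry all 10 were called lower, with a median of -3.24, and all 10 were again lower at 21 d against 14 d, where 5.95% of all genes were. In confluent against subconfluent cells, where Cdkn1a rose, 1 of these 10 was called lower and 1.34% of all genes were. The median log2 fold change of the 10 was -0.46 there, and that of all genes tested 2.2e-05.

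Of 8 ubiquitin ligase subunits that mark cyclins or p27 for breakdown, 1 was higher and 5 were lower at 21 d against subconfluent cells, against 27.3% and 23.5% of all genes. Skp2, which recognizes p27, fell by 2.33 (standard error 0.14, adjusted p = 2.0e-05), and its cofactor Cks1b fell by 2.11. Fbxw7, which recognizes cyclin E, fell by 0.29 (adjusted p = 0.0496), while Fbxo31, which recognizes cyclin D1, rose by 1.33. The INK4 inhibitor gene left, Cdkn2d (p19), fell by 1.21 (standard error 0.19, adjusted p = 0.0016), in the direction of Cdkn2c.

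**Figure D5:**
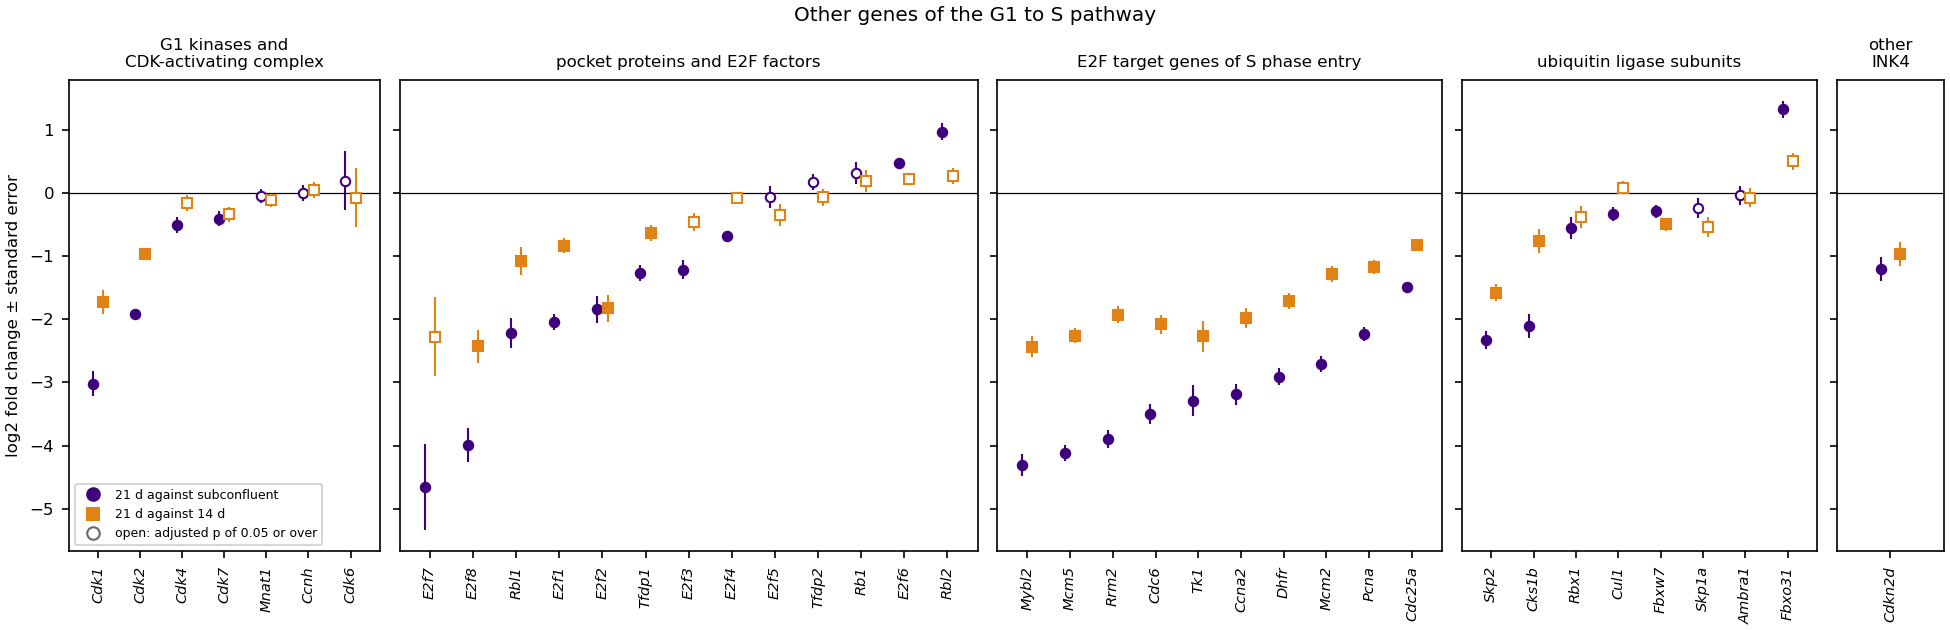
Log2 fold change with its standard error (vertical axis) of the other genes of the pathway (horizontal axis, by list) at 21 d against subconfluent cells (circles) and at 21 d against 14 d (squares), with filled symbols for an adjusted p under 0.05. All 10 E2F target genes are filled and below 0 in both comparisons, and Rbl2 and Fbxo31 are above 0.

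For each member the gene whose log2 CPM followed it most closely over the 10 libraries was sought among the 11984 genes that averaged 5 CPM or more. The points are libraries of 5 stages and share their depth and preparation, so these correlations are descriptions. Ccne1 was followed by Nasp, a histone chaperone (Pearson r = 0.997), Ccne2 by Neil3, a DNA glycosylase (0.992), and Cdkn2c by the pseudogene Gm12891 (0.994). Cdkn1a was followed by Mindy4 (0.970) and Cdkn1b by Mocs1 (0.983). Ccnd1 was followed by Rptor (0.981), Ccnd2 by Shroom4 (0.992) and Ccnd3 by its own pseudogene Ccnd3-ps (0.967). Both Ccnd1 and Ccnd2 were lowest in 24 h A, at 35.1 and 169 CPM, and next lowest in 21 d B, at 62.5 and 191. That 1 library, 24 h A, may weigh on their correlations, which was not tested. Cdkn1c, with its few counts, was closest to Nudt16 (0.943).

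The 10 genes lie on 4 chromosomes. Ccne2, Cdkn2b and Cdkn2c are on chromosome 4, Ccnd2 and Cdkn1b on 6, Ccnd1, Ccne1 and Cdkn1c on 7, and Ccnd3 and Cdkn1a on 17. At 21 d against subconfluent cells both expressed members on chromosome 4, Ccne2 and Cdkn2c, fell. On chromosome 6 Cdkn1b rose while Ccnd2 had a change of -0.56 that was not called. On chromosome 7 Ccne1 fell, while Cdkn1c, with at most 18 counts in any library, was called higher in 9 of 19 alternatives.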

How the data were processed

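The authors deposited 1 table of read counts per gene, not normalized, and 1 table of RPKM values, in which they scaled those counts to gene length and library depth. The submitters' processing notes name FastQC, TopHat2 2.0.9, R 3.0.1 and mm10. Reads were 51 bp and paired. The counting tool, its annotation and its use of strand are not given in the sources used here. Libraries run in 2 lanes (14 d A and 21 d B) also have a column per lane, and the merged column was used. Groups came from the sample labels. Identifiers were matched to symbols in GENCODE vM21 (GRCm38).

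Counts were analysed here with edgeR 4.0.16 in R 4.3.3: filterByExpr, TMM scaling, a quasi-likelihood fit of 5 stages to 10 libraries, and Benjamini-Hochberg adjustment over 20808 genes in each comparison. A standard error is taken as |log2 fold change| over the root of the F statistic, and intervals use its t distribution. Depth ran from 44736156 to 162939333 counts per library. Alternatives were DESeq2 1.42.0 and its size factors, library size alone, other filters, fewer stages, limma-trend (3.58.1) on log2(RPKM + 1) and log2(RPKM + 0.1), a 2-fold threshold, summed lanes, a block for the replicate letter and each replicate left out. The sum of Ccnd1 and LTO1 was added after seeing the data. Every member is named, and pathway genes come from fixed lists. The members and lists were chosen with earlier results of these data known. The fit was tested on simulated counts in which each gene had the same spread setting at every stage. That test does not cover the wider spread of the 24 h replicates. Promoters are RefSeq's. ChIP-seq and other data of the study were not analysed here.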

Additional observations from a re-analysis of the deposited data

How the results depend on the processing

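With 2 replicates per stage the spread comes from all stages, and the wide spread at 24 h limits the calls. The number of members called at 14 d against 24 h was 1 in place of 2 with no filter, with only the 2 stages compared and with a 2-fold threshold, and 1 to 5 with a replicate left out. At 24 h against confluent cells it was 0 to 2 with a replicate left out. At 21 d against 14 d it was 6 with only the 2 stages, 5 with no 24 h samples and 3 to 5 with a replicate left out, in place of 3. At 14 d against confluent cells it was 5, 6 and 1 to 6, and 1 with a 2-fold threshold, in place of 3. Within each set of libraries a replicate letter goes with 1 index sequence, but the labels tie it to no shared culture or day, and the deviations of A from B correlated between -0.33 and 0.32 across pairs of stages, so the letters were not taken as pairs. With the letter as a block the counts were 2 at 14 d against 24 h, 2 at 14 d against confluent cells, where Cdkn1b was lost (adjusted p = 0.059), and as before elsewhere. Library size alone took the median of all genes from 0.03 to -0.20 at 14 d against confluent cells and from 0.04 to -0.12 at 21 d against subconfluent cells.

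The values that changed sign under an alternative were not called in the fit reported above. Ccne2 at 14 d against 24 h was -0.064 with library size alone, -0.035 with no filter, -0.077 and -0.084 with limma at the larger and smaller pseudocount, and -0.056 to 0.13 with a replicate left out. Ccnd1 at 24 h against confluent cells was 0.29 with LTO1 added and -0.94 to 0.23 with a replicate left out. Cdkn1c in confluent against subconfluent cells was -0.0069 and -0.061 with the same limma fits and -3.80 to 1.70 with a replicate left out. With a replicate left out, Ccnd2 ranged from -0.079 to 0.15 in confluent against subconfluent cells and from -0.40 to 0.31 at 14 d against 24 h, where -0.40 (without 24 h A) and 0.31 (without 24 h B) were both called. Likewise Ccne2 ranged from -0.15 to 0.032 at 14 d against confluent cells, and Cdkn1b from -0.022 to 0.13 in confluent against subconfluent cells and from -0.0080 to 0.23 at 14 d against 24 h. The causes were not tested. Summed lanes did not change the number of members called in any comparison. The merged column differed from the sum of its lanes at 13526 genes in 14 d A and at 13582 in 21 d B.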
